A study of Mus musculus with 44 samples.

Results

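The regions described here are positions listed for NF-kB in lipopolysaccharide (LPS)-treated wild-type macrophages and in no other peak list of the study. Peaks of all 8 deposited lists on chromosomes 1 to 19, X and Y were joined wherever they overlapped by 1 bp, and a region was kept when it held a peak of the WT LPS NF-kB list and of none of the other 7 lists. This left 501 of the 5605 joined regions. They held 501 of the 2494 peaks of that list (20.1%), 1 peak per region. The members were therefore chosen by presence and absence in the lists, and the values of the WT LPS NF-kB list are given below as a description, with no test.

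The cells were bone marrow-derived macrophages of C57BL/6 mice, either wild type (WT) or labelled Dnmt3a KO, grown with 30 ng/ml M-CSF and used between day 8 and day 10. Each genotype was left untreated or received 10 ng/ml LPS for 6 hours, and chromatin was precipitated for NF-kB or IRF3. All groups share the strain and the culture. The labels give neither the NF-kB subunit, nor how the Dnmt3a allele was deleted, nor whether replicates came from separate animals. Each of the 8 lists merges its group's samples, 3 for every NF-kB list and for IRF3 in untreated WT and in KO with LPS, and 2 for IRF3 in WT with LPS and in untreated KO. The merged lists carry no spread between replicates, so no difference between lists was tested, and the 95% intervals below are exact binomial (Clopper-Pearson) intervals that cover counting error only. The sources used here give no read depth.

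NF-kB is a family of dimeric transcription factors held in the cytoplasm by IkB inhibitor proteins. LPS binding to Toll-like receptor 4 activates the IkB kinase complex, the inhibitors are degraded, and NF-kB enters the nucleus and binds kB sites at cytokine, chemokine and feedback genes. In macrophages this is the main early route to inflammatory gene expression. Dnmt3a places new methyl groups on cytosines, and IRF3 is the factor that acts with NF-kB at interferon-beta.

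Start windows of genes (250 bases before to 50 after an annotated start, RefSeq, GRCm38.p6) that a region overlapped are shown because they are the places where these regions reach a promoter. There were 4 such windows, and capitals mark the bases that lie inside the region. Usp17lc encodes a member of the USP17 family of deubiquitinating enzymes, Gm21698 and A530032D15Rik are annotated as protein-coding genes, and Gm41113, included after its values were seen, is annotated as a long non-coding RNA.
Usp17lc, chr7:103416446-103416745, plus strand: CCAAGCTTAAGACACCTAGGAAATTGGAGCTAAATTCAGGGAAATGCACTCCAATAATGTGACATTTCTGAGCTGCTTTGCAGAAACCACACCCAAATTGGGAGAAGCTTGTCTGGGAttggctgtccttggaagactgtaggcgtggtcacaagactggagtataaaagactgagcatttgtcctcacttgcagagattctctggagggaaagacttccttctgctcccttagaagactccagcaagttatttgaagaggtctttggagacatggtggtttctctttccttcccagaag
Gm21698, chr5:25988601-25988900, minus strand: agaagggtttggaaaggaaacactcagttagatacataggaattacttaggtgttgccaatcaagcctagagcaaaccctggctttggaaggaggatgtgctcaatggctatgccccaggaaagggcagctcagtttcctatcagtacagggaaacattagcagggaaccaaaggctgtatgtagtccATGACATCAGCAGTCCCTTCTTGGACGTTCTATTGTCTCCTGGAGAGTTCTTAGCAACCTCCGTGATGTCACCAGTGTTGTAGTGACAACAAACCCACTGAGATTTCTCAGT
A530032D15Rik, chr1:85109804-85110103, minus strand: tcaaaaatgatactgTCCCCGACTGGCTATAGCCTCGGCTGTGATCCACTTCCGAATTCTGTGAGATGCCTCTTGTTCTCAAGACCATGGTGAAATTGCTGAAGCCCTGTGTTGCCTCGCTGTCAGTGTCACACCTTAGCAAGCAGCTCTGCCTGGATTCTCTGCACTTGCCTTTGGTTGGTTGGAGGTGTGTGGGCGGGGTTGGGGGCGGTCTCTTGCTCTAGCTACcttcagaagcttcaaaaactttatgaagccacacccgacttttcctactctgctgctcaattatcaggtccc
Gm41113, chr14:25379027-25379326, plus strand: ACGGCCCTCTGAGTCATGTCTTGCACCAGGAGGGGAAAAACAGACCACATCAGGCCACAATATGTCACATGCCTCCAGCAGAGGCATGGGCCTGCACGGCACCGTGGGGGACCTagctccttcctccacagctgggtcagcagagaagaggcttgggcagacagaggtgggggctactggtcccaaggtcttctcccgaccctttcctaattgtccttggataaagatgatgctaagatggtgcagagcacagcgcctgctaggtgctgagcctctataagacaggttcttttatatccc
The region at Usp17lc was 1057 bp wide and covered 118 bases of the window, all upstream of the start. At Gm21698 a 155 bp region covered 112 bases, up to the downstream end of the window. At A530032D15Rik a 213 bp region lay wholly inside the window, and at Gm41113 a 147 bp region covered the first 114 bases. Their ranks in the list, from the smallest deposited p-value upward, were 1133, 1263, 1650 and 2108 of 2494. None of the 4 windows held a match to the NF-kB consensus on either strand, a pattern of 10 positions that opens with GGG and ends with CC. Of all 32851 start windows in the table, 8.46% held one. The Gm41113 window held 1 match to the AP-1 motif TGANTCA and 1 to GAGGAAG, a core that PU.1, the macrophage lineage factor, recognises.

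Most of the regions came from the low-ranked end of the WT LPS NF-kB list. Their median deposited signal value was 9.30 (quartiles 7.85 and 10.9, range 3.32 to 42.6), against 11.997 for the 1993 peaks of the same list that were also in another list. The median rank was 1918, against 1052. Only 1 region had a deposited q-value under 0.05 (interval 0.00505 to 1.11%), while 330 of the 2494 peaks of the list did (13.2%). A q-value of 0.5 or more was listed for 402 regions (80.2%) and for 696 of the other peaks (34.9%). The largest q-value of the list, 0.904, was carried by 171 of the regions (34.1%) and by 227 of the other peaks (11.4%). The q-values, p-values and signal values are the authors' own, and the normalization of the signal value is not stated in the sources used here.

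The regions were also narrow. Their median width was 314 bp (quartiles 170 and 616, range 93 to 2934), against 1224 bp for the other peaks of the list. A peak under 500 bp made up 321 of the regions (64.1%, 59.7 to 68.3%) and 294 of the other peaks (14.8%, 13.2 to 16.4%). The chromatin had been sheared to between 100 and 300 bp, and 238 regions were under 300 bp. With every list cut to the 1169 best-ranked peaks, the length of the shortest, 133 regions were left and 30.8% of them were under 500 bp.

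**Figure D1:**
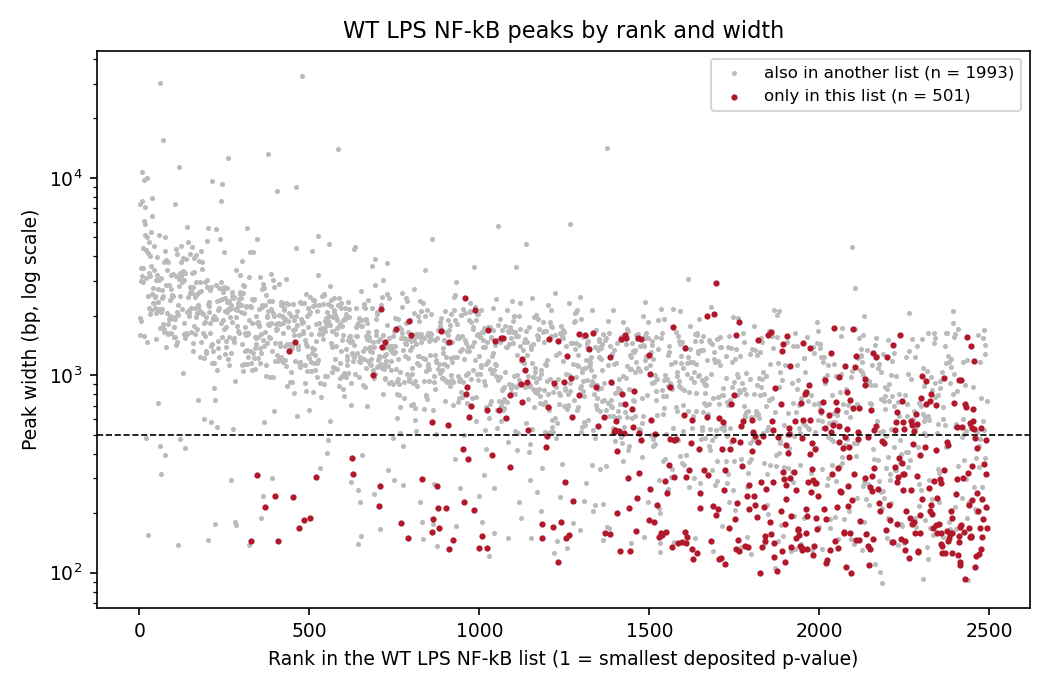
Each point is a peak of the WT LPS NF-kB list, placed by its rank on the x axis and its width in bp on a log y axis, with a dashed line at 500 bp. The 501 peaks found in no other list (red) start at rank 329 and lie mostly under the line, while the best-ranked peaks are wide and grey.

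Rank and width each went with being found in this list alone. Among the 500 best-ranked peaks 10 were found in no other list (2%, 0.963 to 3.65%), and among the 494 worst-ranked ones 213 were (43.1%, 38.7 to 47.6%). Among peaks under 300 bp the share was 59.6% (54.7 to 64.5%), and among peaks of 2000 bp or more it was 1.33% (0.433 to 3.08%). In the better-ranked part of the list, ranks 1 to 1247, 41 of 108 narrow peaks were in this list alone (38.0%, 28.8 to 47.8%), against 37 of 1139 wider ones (3.25%, 2.30 to 4.45%). In the worse-ranked part the shares were 55.2% and 19.3%. The split by width was thus present in each part of the ranking. The number of lists that held a position moved in the same way over its whole range. Median width rose from 314 bp for 1 list to 608 bp for 2, 981.5 bp for 4 and 2139 bp for all 8, and median rank went from 1918 to 1564, 1318.5 and 259. The overlap rule itself ties width to membership and to the number of lists, since a wide peak has more room to meet another. How much of the pattern follows from the rule was not tested.

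**Figure D2:**
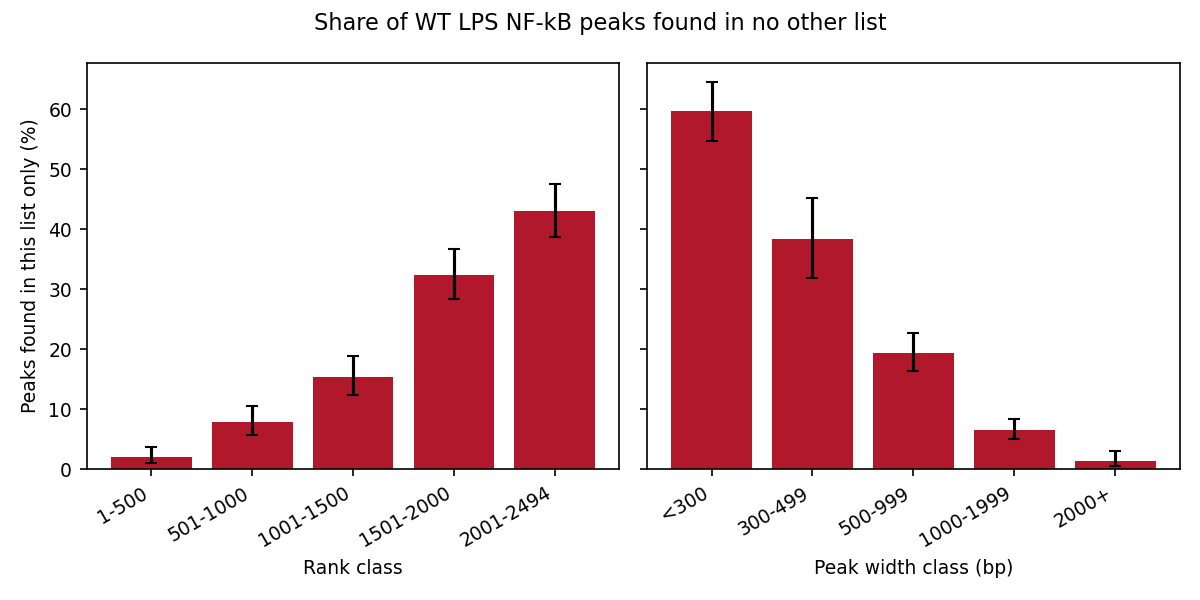
Bars give the percentage of WT LPS NF-kB peaks found in no other list, by rank class (left) and by width class in bp (right), with exact 95% binomial intervals as error bars. The share goes from 2% in the best rank class to 43.1% in the worst, and from 59.6% of the narrowest peaks to 1.33% of the widest.

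Of the 20 best-ranked regions, 14 were under 500 bp wide and 17 had a protein-coding gene within 100 kb or around them. Among all 501 regions, 325 had such a gene. The best one, at rank 329 with a q-value of 0.0490, was a 144 bp peak on chromosome 18 (8600663 to 8600806) whose nearest protein-coding gene, the Wnt receptor gene Fzd8, lay 612050 bp away. The next was a 311 bp peak on chromosome 10 (123796138 to 123796448), 54934 bp from Tafa2, which encodes a small secreted protein, with a signal value of 13.3 and a q-value of 0.0559. A 214 bp peak on chromosome 2 (165430942 to 165431155, q-value 0.0639) lay inside Slc13a3, a dicarboxylate transporter gene. Genes are named by position alone, and the lists measure no effect on them.

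The genes next in the ranking were of varied kinds. Narrow regions lay 74800 bp from Papss1, an enzyme gene of sulfate activation (145 bp, rank 409), and 4270 bp from Cyp39a1, an oxysterol hydroxylase gene (241 bp, rank 451). Tmem47 on chromosome X lay 104090 bp from a 245 bp region at rank 400, and the amino acid transporter gene Slc6a15 lay 237459 bp from a 184 bp region at rank 485. Asmt, the gene of the last enzyme of melatonin synthesis, lay 55111 bp from a 1476 bp region at rank 457. An untreated KO NF-kB peak lay 2303 bp from that region. For the other regions of this paragraph the gap to another list was 20387 to 1004744 bp.

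Several of the 20 lay beside members of multi-copy families. Regions at ranks 470, 520, 626 and 705 were nearest to Gm9758, Gm21149 (at 2 positions) and Gm17019, all within 1 Mb on chromosome 5. Others lay 6617 bp from the vomeronasal receptor gene Vmn2r92, 9232 bp from Pramel14 and 3005 bp from A530032D15Rik. Mageb18 held a 1479 bp region at rank 722, and Cldn34c1 and Gm14819, also on chromosome X, lay 51658 and 80727 bp from regions at ranks 715 and 687. Alkbh8, a tRNA methyltransferase gene named here for its rank alone, lay 23001 bp from a 275 bp region at rank 708. In multi-copy families near-identical copies can share reads, so the position of a peak among copies is uncertain. Peaks of other lists lay 304 to 2976 bp from the chromosome 5 regions and 167 bp from the region near Cldn34c1. For Alkbh8, Vmn2r92 and A530032D15Rik the gaps were 1664, 1869 and 3476 bp. The regions of Gm14819, Mageb18 and Pramel14 lay 164756, 236996 and 616961 bp from another list.

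No gene on the list of NF-kB targets used here lay within 10 kb of these regions. Of 59 target genes (cytokines, chemokines, IkB proteins and other inflammatory genes), 0 lay within 10 kb of a region (0 to 6.06%), where 0.827% of the 21887 protein-coding genes did. That background is so low that a count of 0 lies near it and shows no difference between the targets and other genes. The whole WT LPS NF-kB list had a peak within 10 kb of 8 of the 59 targets, against 4.1% of all protein-coding genes. The gene list was written with earlier results of these data known and includes genes that those results had named.

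All 8 of those targets fell outside the regions because another list held the same position, and in every case that list was KO with LPS. These were the genes of A20 (Tnfaip3), a ubiquitin-editing brake on NF-kB, and of its binding partner (Tnip1), Bcl3, a nuclear IkB gene, Malt1, a paracaspase gene, the superoxide dismutase gene Sod2, the ferritin heavy chain gene Fth1, the prostaglandin E synthase gene Ptges, and Ptx3, the pentraxin 3 gene. For 7 of the 8 the KO LPS NF-kB list was the only other list with the position, and Ptx3 was also in the IRF3 list of KO with LPS. Fth1 had the highest signal value among these peaks, 21.2 at rank 119 (473 bp, chromosome 19, 9974801 to 9975273). The Tnfaip3 and Sod2 peaks followed with 16.8 (rank 389) and 16.6 (rank 284). The 104 peaks listed with LPS in both genotypes for NF-kB and in no IRF3 or untreated list lay within 10 kb of 7 of the 59 targets (11.9%, 4.91 to 22.9%), against 0.274% of all protein-coding genes. The 444 regions found only for NF-kB in KO with LPS lay near 9 (15.3%, 7.22 to 27.0%), against 0.955% of all genes. Because the target list includes genes that earlier results of these data had named, both counts are a description. No difference from the 0 of the 501 regions was tested. The shared 104 peaks were about as narrow as the regions found in WT alone (median 295 against 314 bp, and 65.4 against 64.1% under 500 bp). They had a median signal value of 10.3 against 9.30 and a median rank of 1436.5 against 1918.

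Genes upstream of NF-kB and those of other immune lists were near the regions in counts of 0 or 1 per list, to be read against the 0.827% of all protein-coding genes. Of 37 NF-kB signalling genes 1 lay within 10 kb, Otulin, which encodes a deubiquitinase that removes linear ubiquitin chains, 8550 bp from a 711 bp region on chromosome 15 (27639527 to 27640237, rank 2315, q-value 0.904). Of 14 antigen presentation genes 1 did, Ciita, the MHC class II transactivator gene. The Ciita region (548 bp, chromosome 16, 10485685 to 10486232, signal value 10.9, rank 2404) lay inside the gene, 5671 bp from its nearer end and 145191 bp from the nearest peak of any other list. None of 31 interferon response genes, 30 macrophage identity genes, 15 inflammasome and cell death genes and 15 DNA methylation genes was within 10 kb. Markers of T cells, B cells, neutrophils, dendritic cells, erythroid and stromal cells, 4 to 6 genes each, were at 0 as well, and with lists this short a count of 0 allows shares of 45.9 to 60.2%. Peaks measure no expression, so these counts do not check the cell type.

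Within 50 kb lay 3 more listed genes, where 422 of the 21887 protein-coding genes had a region at that distance. A 740 bp region on chromosome 7 (19672229 to 19672968, signal value 7.22, rank 2244) overlapped the apolipoprotein gene Apoc2, lay 23276 bp from Apoe and 42791 bp from Relb, the gene of an NF-kB subunit. A 140 bp region inside Pdgfrb on chromosome 18 (61074765 to 61074904) lay 30668 bp from Csf1r, the receptor gene for M-CSF. Both regions carried a q-value of 0.904.

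Protein-coding gene spans overlapped 122 of the regions (24.4%, 20.7 to 28.4%), against 617 of the other peaks of the list (31.0%, 28.9 to 33.0%). The 124 genes that held a region were long, with a median span of 164528 bp against 17169 bp for all protein-coding genes, and 63.7% of them were over 100 kb long against 11.1% of all genes. Long genes offer more room for a peak, and no correction for length was made. Overlapping genes were each counted, so 1 region can stand under several, as in the Ugt1a family. Lengths of the genes that held the other peaks of the list were not computed. Examples, chosen after their values were seen, are the histone deacetylase gene Hdac9 with 2 regions, the MAP kinase kinase gene Map2k1 with 2, and Drosha, Prkca and Dapk2 with 1 each. A gene end lay within 10 kb of 78 regions (15.6%, 12.5 to 19.05%) and within 1 kb of 11 (2.20%, 1.10 to 3.89%), against 16.3 and 1.40% of the other peaks. No protein-coding gene lay within 100 kb of 176 regions (35.1%, 30.9 to 39.5%), near the 32.5% (30.5 to 34.6%) of the other peaks. Long non-coding RNA genes overlapped 34 regions (6.79%) and pseudogenes 24 (4.79%, 3.09 to 7.04%), against 6.37% and 2.46% (1.82 to 3.24%) of the other peaks. No annotated miRNA hairpin with a sequence in the table, of 1005, lay within 10 kb of a region.

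The Map2k1 regions were among those with the highest signal, again singled out after their values were seen. Map2k1 encodes MEK1, the kinase above ERK. A 968 bp region and a 528 bp region met end to end on chromosome 9 (64236816 to 64238311), inside the gene, 454 bp from Uchl4, a gene nested within it. Each carried the signal value 16.5, their ranks were 2367 and 1142, and the nearest peaks of another list were 683288 and 684256 bp away.

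Touching pairs of this kind occurred elsewhere in the list. In the WT LPS NF-kB list 190 peaks met another end to end without overlapping, in 95 pairs, and in all 95 pairs the 2 peaks carried the same signal value. Of the regions, 33 touched a peak of their own list. In 14 pairs both peaks were members, so joining them would leave 487 regions. A further 5 members touched a peak that was also in another list, which the overlap rule keeps apart. The other 468 members touched no peak of their list. Pairs included 2 regions 18733 bp from Ier5l (180 and 169 bp), 2 inside Hdac9 (485 and 176 bp) and 2 over the pseudogene Cyp2c53-ps on chromosome 19 (377 and 292 bp).

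The highest signal value of all, 42.6, belonged to a 739 bp region on chromosome 8 (123554167 to 123554905) over n-R5s109, a gene of the 5S ribosomal RNA. It ranked 2324 with a q-value of 0.904, and a peak of the untreated WT NF-kB list lay 1350 bp from it. The next highest values were 18.5 at 8413 bp from the vomeronasal receptor gene Vmn1r175, 17.4 at 49408 bp from Kif16b, a kinesin gene, 17.4 inside Fbxl17, an F-box gene, and 16.7 at 110606 bp from the amino acid transporter gene Slc6a14. The Kif16b and Slc6a14 regions lay 410 and 618 bp from a peak of another list. For the Vmn1r175 and Fbxl17 regions that gap was 300631 and 538368 bp.

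The fullest runs of regions lay in families of similar genes. Runs were defined as members within 1 Mb of each other. The fullest held 14 regions on chromosome 5 (14900156 to 15708337), among Speer4d, Speer4e and predicted genes such as Gm9758, Gm17019, Gm21149 and Gm21190. The second held 9 on chromosome 1 (85084818 to 85625480), among A530032D15Rik, Gm38510, Gm7592, Sp110 and Sp140, the last 2 encoding nuclear body proteins. The next 2 lay on chromosome 4 among zinc finger genes, with 8 regions from 146588691 to 147520316 (Zfp993, Zfp978, Zfp991, Zfp988, Zfp982 and Rex2) and 6 from 145254525 to 146193039 (Zfp990, Zfp980, Zfp987 and Zfp600). In the latter a 185 bp region at rank 1498 lay 7655 bp from Tnfrsf1b, the gene of TNF receptor 2, a gene outside the lists that was picked after its values were seen. A further run of 4 on chromosome X (21819406 to 22116913) overlapped no protein-coding gene.

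The 37 regions of the first 4 runs differed in their values from the other 464. All 37 were under 500 bp, with a median of 207 bp against 340.5 bp. Their median signal value was 6.48 (4.06 to 9.93) against 9.49. Another list had a peak within 10 kb of 33 of them (89.2%, 74.6 to 97.0%), against 57 of the 464 others (12.3%, 9.44 to 15.6%). In the chromosome 5 run every region had one, between 304 and 7077 bp away, and the 8 lists held between 1 and 51 peaks in that stretch, 32 of them in the WT LPS NF-kB list. The runs were found from the positions of the members, so their fullness is a description. The same stretches held 38 of 191 regions found only in the WT LPS IRF3 list (19.9%, 14.5 to 26.3%), 50 of 205 found only in the untreated WT IRF3 list (24.4%, 18.7 to 30.9%) and 20 of 444 found only in the KO LPS NF-kB list (4.50%, 2.77 to 6.87%), against 7.39% here (5.25 to 10.0%). For IRF3 in KO with LPS and in untreated KO the shares were 5% and 4.44%, and for NF-kB in untreated KO and untreated WT 3.796% and 2.15%.

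**Figure D3:**
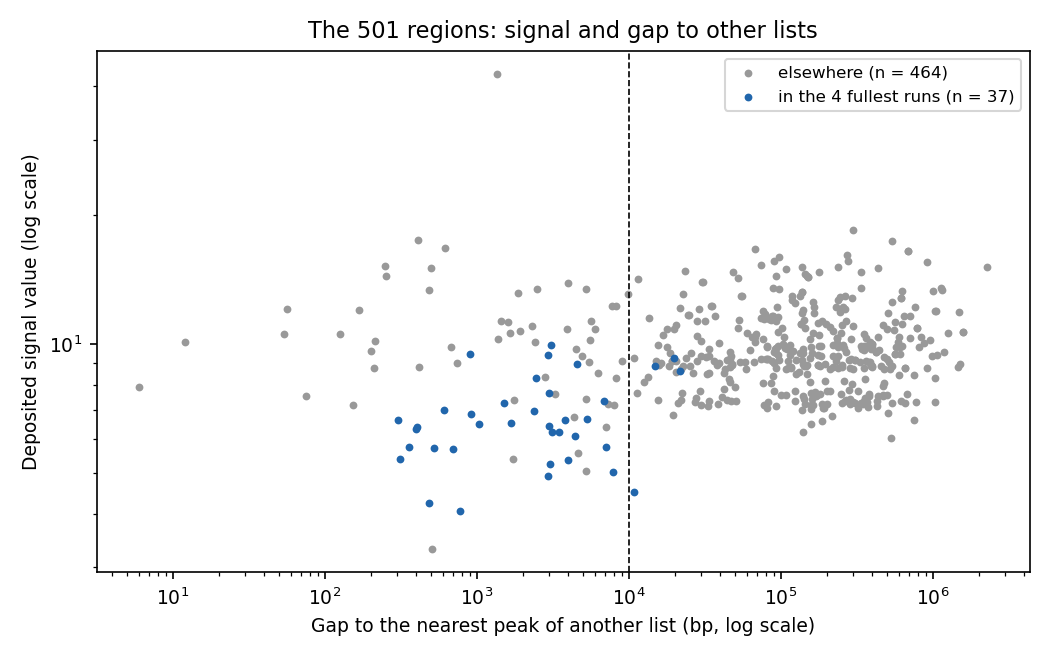
Each point is 1 of the 501 regions, placed by its gap in bp to the nearest peak of another list (log x axis, dashed line at 10 kb) and by its deposited signal value (log y axis). The 37 regions of the 4 fullest runs (blue) lie low and mostly left of the line, and the point at the top is the region over the 5S ribosomal RNA gene with a signal value of 42.6.

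Neighbouring genes were also counted by family. Of the 325 regions with a protein-coding gene within 100 kb, the nearest gene was a predicted gene with a Gm symbol for 44 (13.5%, 10.0 to 17.7%), a Zfp gene for 15 (4.62%, 2.61 to 7.50%), a Pramel gene for 5 (1.54%, 0.501 to 3.55%), a cytochrome P450 gene for 6 (1.85%, 0.680 to 3.97%), a vomeronasal receptor gene for 7 (2.15%) and an olfactory receptor gene for 6 (1.85%). Among the other peaks of the list the shares were 9.52, 2.38, 0.223, 0.520, 2.97 and 2.53%. These families were chosen after the neighbours were seen.

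Gaps to the other lists were measured next. The median gap to the nearest peak of another list was 115915 bp. Of the regions, 90 had one within 10 kb (18.0%, 14.7 to 21.6%), 33 within 1 kb (6.59%, 4.58 to 9.13%) and 237 within 100 kb (47.3%, 42.9 to 51.8%). Measured in the same way, the median gap was 126866 bp for the NF-kB regions of KO with LPS alone, 152417 bp for untreated KO, 132764 bp for untreated WT and between 23600 and 106601 bp for the 4 IRF3 sets. By list, the untreated KO NF-kB list came within 10 kb of 53 regions, the KO LPS NF-kB list of 44, and the untreated WT NF-kB list of 31. The IRF3 lists did so for 44 (WT untreated), 43 (WT LPS), 33 (KO LPS) and 22 (KO untreated). Longer lists have more chances to lie near, and the lists hold between 1169 and 3065 peaks.

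Some members lay close to the limit of the rule. The closest members lay 6 bp from a KO LPS NF-kB peak (43155 bp from Gm4846, 158 bp wide, signal value 7.92, rank 2090) and 12 bp from one inside Wdr76 (109 bp, 10.1, rank 2146). The next 3, which were 62297 bp from Sh3bp4, inside Hs3st5 and 41465 bp from Gm52720, lay 54, 56 and 75 bp from an IRF3 peak. Just outside, a 130 bp peak in 4930467E23Rik (signal value 7.002, rank 1977) missed membership by an overlap of 18 bp. A 177 bp peak inside Ptges (11.3, rank 2241) missed it by 20 bp shared with KO with LPS. Overlaps of 46, 62 and 62 bp kept out peaks whose nearest genes were Gm17019 at 4671 bp, Luzp2 at 96497 bp and Htr7 at 291135 bp.

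The 5 widest regions were 2934, 2466, 2174, 2145 and 2031 bp wide. Their nearest protein-coding genes were, in that order, Srsx at 7411 bp, 4932411N23Rik at 782481 bp, Pramel14 at 9232 bp, Olfr1324 at 187369 bp and Gm21115 at 2893 bp. Their ranks ran from 710 to 1695. The 10 best-ranked narrow regions all lie among the 20 best already given, from rank 329 to rank 520.

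Chromosome X held 60 regions (11.98%, 9.26 to 15.1%) and 202 of the other peaks of the list (10.1%, 8.84 to 11.5%). Chromosome 19 had the highest share of its peaks in this list alone, 16 of 44 (36.4%, 22.4 to 52.2%), and chromosome 11 the lowest, 10 of 77 (13.0%, 6.41 to 22.6%). Of the 20 chromosomes with a peak, the intervals of all except 19 included the 20.1% of the whole list. Of the 16 regions on chromosome 19, the best-ranked was a 579 bp peak 4014 bp from Hhex, a homeobox gene of blood progenitors (37444745 to 37445323, signal value 11.4, rank 861).

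**Figure D4:**
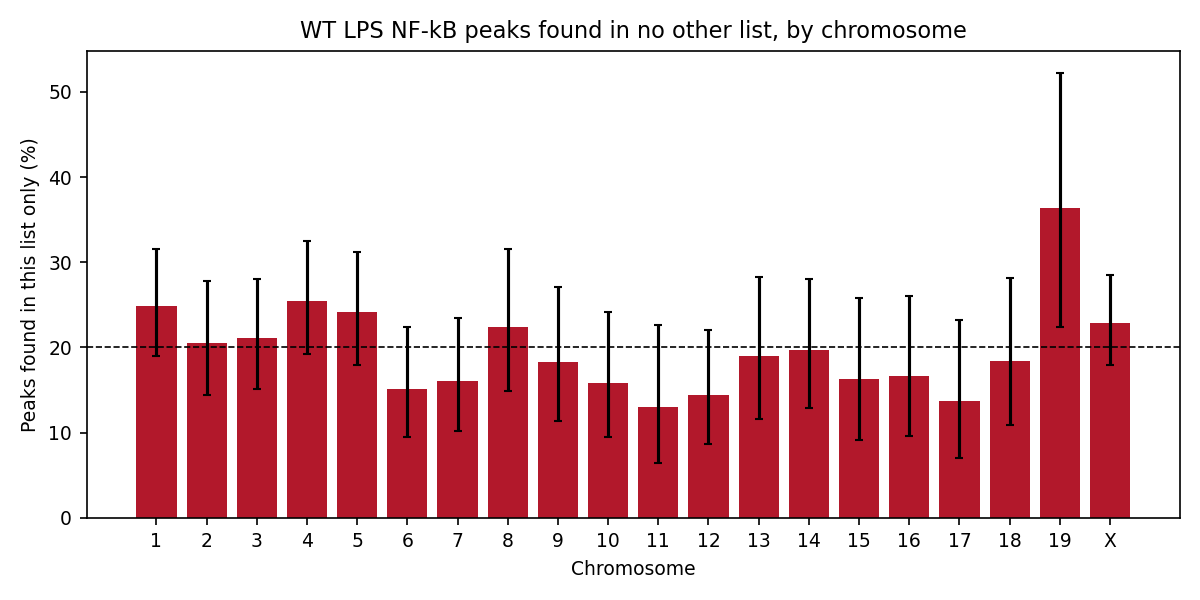
Bars give, for each chromosome, the percentage of its WT LPS NF-kB peaks found in no other list, with exact 95% binomial intervals, and the dashed line is the value over all chromosomes, 20.1%. Chromosome 19 (36.4% of 44 peaks) is the only bar whose interval lies above the line.

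Positions found in 1 other list alone were set beside the regions, whose share in gene spans was the lowest of the 8 sets. Median widths ran from 246.5 bp for NF-kB in KO with LPS to 594 bp for IRF3 in untreated KO, with 314 bp here. The share under 500 bp was 64.1% here, 66.1% for NF-kB in untreated WT (n = 186), 57.2% in untreated KO (n = 843) and 73.6% in KO with LPS (n = 444), and 40.0 to 65.9% for the 4 IRF3 sets. Regions found in 1 list alone made up between 7.91 and 27.5% of each list. Median signal values ran from 8.37 to 10.1, and q-values under 0.05 were carried by 6 regions of the KO LPS NF-kB set and by 0 in the other 6 sets. Gene spans overlapped 24.4% (20.7 to 28.4%) of the regions in WT with LPS and 34.0% (29.6 to 38.6%) of those in KO with LPS, and gene ends lay within 10 kb of 15.6% (12.5 to 19.05%) and 24.5% (20.6 to 28.8%). For the 4 IRF3 sets and NF-kB in untreated WT the span shares were 26.9 to 29.6%, with intervals overlapping the one here. For NF-kB in untreated KO it was 31.8% (28.7 to 35.1%). The gene end shares were 16.5% in untreated KO, 16.7% in untreated WT and 17.8 to 23.9% for IRF3. The median distance to the nearest protein-coding gene was longest of the 8 sets here, at 37105 bp, with IRF3 in untreated KO close to it at 34998 bp. The shortest was 11630.5 bp, in KO with LPS for NF-kB. The intervals of the NF-kB sets of WT with LPS and KO with LPS did not overlap for gene spans or for gene ends. Among all 2494 peaks of the WT LPS NF-kB list the shares were 29.6 and 16.2%. For the whole KO LPS NF-kB list they were not computed. Whether the higher KO shares belong to these regions or to that whole list therefore cannot be told. The intervals count positions and not replicates, and the difference between the genotypes was not tested.

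**Figure D5:**
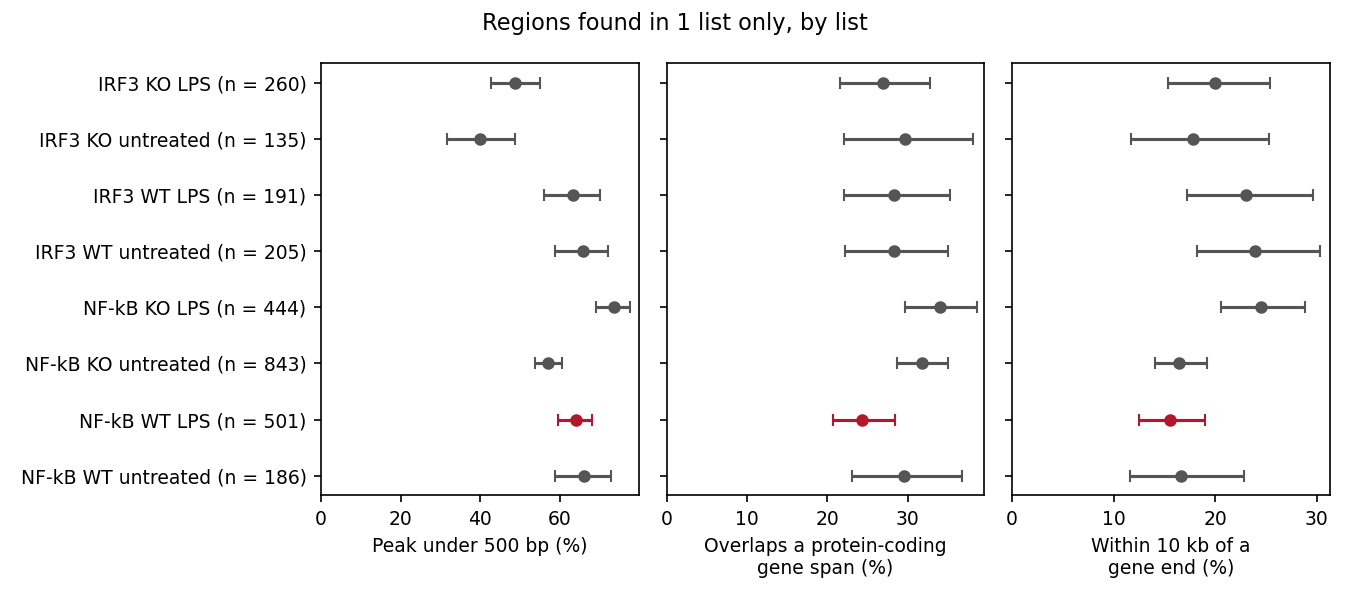
Points give, for the regions found in 1 list only, the percentage with a peak under 500 bp (left), overlapping a protein-coding gene span (middle) and within 10 kb of a gene end (right), with exact 95% binomial intervals. The WT LPS NF-kB regions are in red, at 64.1, 24.4 and 15.6%, and the KO LPS NF-kB regions stand at 73.6, 34.0 and 24.5%.

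Motifs could be searched only in the start windows of genes, since no genome sequence was used here. Within 10 kb of a region lay 79 start windows of 67 genes. The NF-kB consensus was found in 4 of them (5.06%, 1.40 to 12.5%), against 8.46% of all windows, 9.15% of 306 windows near the other peaks of the list, 6.61% of 121 near the NF-kB regions of KO with LPS alone, 5.07% of 138 near those of untreated KO alone and 4% of 25 near those of untreated WT alone. The 4 matches, printed 5′ to 3′ on the strand of the gene, were GGGATCTTCC for 2410141K09Rik, GGGAGACCCC for Ddr1, a collagen receptor gene, GGGGGGCCCC for Srsf9, a splicing factor gene, and GGAGGGTCCC for Hhex, where the match is on the opposite strand. Windows with the Hhex, Ddr1, Srsf9 and 2410141K09Rik matches lay 9854, 5192, 4306 and 3941 bp from their regions. None of the 4 matches is therefore inside a region. TGANTCA was found in 3 of the 79 windows (3.80%, 0.790 to 10.7%) against 7.81% of all, and GAGGAAG in 15 (18.99%, 11.0 to 29.4%) against 13.6%, both searched on either strand. The 79 windows had a median GC content of 49.0%, against 52.7% for all windows. A match describes letters in a window and shows no binding.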

How the data were processed

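NF-kB and IRF3 ChIP-seq peak lists of WT and Dnmt3a KO macrophages were used, 1 merged list per group and factor. Each deposited list gives, per peak, a score, a signal value (also a score of unstated scale), a p-value and a q-value computed by the authors. The build is mm10, and MACS2 2.1.1, HOMER 4.9, Picard 2.8.0, deepTools 3.5.0 and Trim Galore 0.4.5 are named without a role, per the submitters' processing notes. For the aligner, the thresholds used in merging replicates and the read depth, nothing is stated in those notes or the labels. The lists are labelled chipr and optimal, which may name the merging program and its output, but neither word is explained there. Whether the p-values and q-values score single peaks or agreement between replicates was not settled here.

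After chromosomes other than 1 to 19, X and Y were dropped, peaks were joined by 1 bp overlap, and membership, widths, gaps and distances to RefSeq genes (GRCm38.p6) were computed with Python 3.11.15, pandas 2.3.3, numpy 2.4.6 and SciPy 1.17.1. Ranks order peaks by p-value, then signal value, width and position. The joining and membership steps were checked on simulated intervals with known answers. Intervals are exact binomial at 95%. The joining, list lengths, lists required to be absent, chromosomes and distance, width and q-value limits were varied. Named are the 20 best-ranked regions, the 10 best-ranked under 500 bp, those within 10 kb of a listed gene or overlapping a protein-coding start window, the 5 nearest and 5 just missing the membership limit, the 5 widest and the 5 fullest runs. 1 of the best-ranked regions is not reported here. Of 34 interferon response and 6 T cell symbols, 31 and 5 matched a protein-coding gene, and all symbols of the other 11 lists did. The members, gene lists and limits were chosen with earlier results of these data known. Start windows and gene positions come from RefSeq tables, and the window table used here holds no chromosome 18. The RRBS, ATAC-seq and input samples were not analysed here.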

Additional observations from a re-analysis of the deposited data

How the results depend on the processing

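Of 100 values recomputed under alternative settings, 75 stayed within the counting interval of the reported share or, for counts, within 1.5 times. The number of regions fell from 501 to 133 with all lists cut to the length of the shortest and to 1 with only peaks at a q-value under 0.05, where the shares in gene spans, near gene ends and near other lists were 0% and the share under 500 bp was 100%. Target genes near the regions went from 0 to 7 without the KO LPS NF-kB list, and to 1 at 50 kb or where a match needed 50% of either peak. The share at a q-value under 0.05 was 1.48% without the KO LPS NF-kB list and 3.99% at a limit of 0.2. The share under 500 bp was 55.1% against the NF-kB lists alone, 56.7% without the untreated KO NF-kB list and 30.8% with lists cut to equal length, and 47.5 and 87.2% had widths under 300 and 1000 bp. Another list's peak lay within 10 kb of 14.3% with lists cut, 22.0% with the 50% match and 14.4% with peaks up to 500 bp apart joined, and within 1 and 100 kb of 6.59 and 47.3%. Gene ends lay within 10 kb of 20.3% with lists cut, and within 1 and 50 kb of 2.20 and 43.9%. Spans of all annotated genes overlapped 33.9%. The cause of these changes was not tested, apart from the shorter lists and moved limits themselves. No paired analysis was possible because each list merges the replicates of its group, and for the same reason no replicate could be left out. The lists carry no read depth, so absence from a list is not absence of binding.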
